A study of Homo sapiens with 6 samples.

Results

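The annexins and the S100 proteins are 2 families of calcium-binding proteins, and their transcripts were compared between activated and dormant A549 cells, a human lung adenocarcinoma line. Members were all rows of the count table whose symbol began with ANXA and a digit, or with S100 and one of the letters A, B, G, P or Z, which gave 35 of 19470 symbols. Of these, 13 encode annexins and 20 encode S100 proteins. The remaining 2, ANXA2R, a receptor for annexin A2, and S100PBP, a binding partner of S100P, belong to neither family and are given apart. RNA was sequenced from 3 activated and 3 dormant libraries. The activated cells were wild-type A549 cells that had been treated with medium conditioned by osteoclasts, the cells that resorb bone, and the dormant cells were wild-type A549 cells treated to induce dormancy. The labels give no dose, no duration, no way of inducing dormancy and no base medium, so a difference between the groups may include a difference of medium.

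Annexins share a folded core of repeats that binds acidic membrane lipids when calcium rises, and they act in membrane repair, vesicle traffic and the control of inflammation. S100 proteins are small dimers with paired EF-hand calcium sites that open a binding face for target proteins. The families meet in complexes, the best known being the tetramer of annexin A2 and S100A10, which holds plasminogen at the cell surface. Most S100 genes lie in a cluster on chromosome 1, next to the genes of epidermal differentiation.

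Total counts lay between 34128471 and 36667725 per library. Log2 CPM, the normalised counts scaled to library size, correlated at 0.989 to 0.991 among activated libraries, 0.992 among dormant libraries and 0.911 to 0.915 between groups. Whether replicates were grown as separate cultures is not stated, and p-values therefore speak only to how these 6 libraries vary, part of which may be technical. Of 6 epithelial markers, all passed the filter on low counts. In activated cells 3 were called higher, 2 lower (0 to 3 with 1 library left out) and 1 neither. The keratin KRT8 was at 3460 ± 168 CPM in activated and 1672 ± 71.8 CPM in dormant cells (SD, n = 3 each). The keratin KRT7, called lower, was at 1929 ± 118 CPM in activated and 2165 ± 207 CPM in dormant cells. The adhesion molecule EPCAM was at only 0.611 ± 0.185 CPM in activated and 1.28 ± 0.513 CPM in dormant cells. In bulk RNA, a smaller share of cells with a transcript and less of it per cell cannot be told apart.

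Most members with enough counts to test were higher in activated cells. Among annexins, 8 of 13 rose, 2 fell and 3 did not pass. Among S100 genes, 8 of the 10 tested rose, 1 fell and 1 did not pass. Across all 13336 tested genes, 36.5% rose and 37.2% fell, so 73.7% passed in one direction or the other by edgeR's quasi-likelihood test with an adjusted p threshold of 0.05. The median log2 fold change was 0.46 for the tested annexins, 0.77 for the tested S100 genes and -0.02 for all tested genes. With S100A9 left out, which could only be seen to rise, the S100 median was 0.56. In limma on log2(FPKM + 1) with no filter the medians were 0.31 for 13 annexins and 0.17 for 15 S100 genes, and that scale understates the change of low genes. After a correction for gene length, chosen after the data were seen, 7 S100 genes rose and 2 fell, since S100A6 changed sign. The medians after that correction lay close together, at 0.60 for annexins and 0.63 for S100 genes. A rise of at least 2-fold was called for 4 of the 13 annexins, 4 of the 10 tested S100 genes and 11.2% of all tested genes. Every activated library stood above every dormant one for 8 of the 13 annexins, 8 of the 10 tested S100 genes and 37.7% of all tested genes. S100A9 is in both S100 counts, and the near-identical copies ANXA8 and ANXA8L1 are in both annexin counts.

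**Figure D1:**
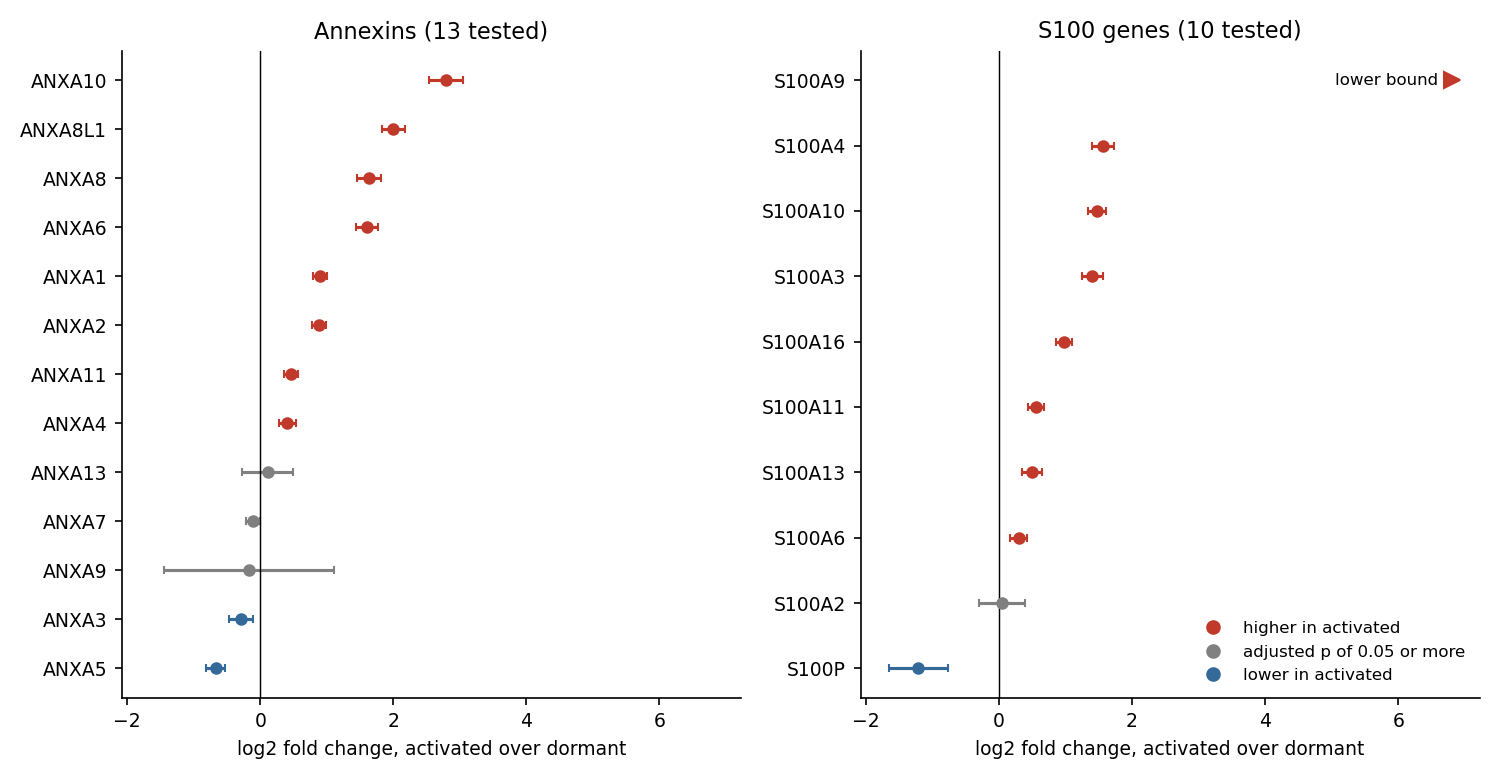
Log2 fold change of each tested annexin and S100 gene, activated over dormant, with the 95% interval as bars. ANXA10 is highest among annexins at 2.79 and ANXA5 lowest at -0.67. S100A9 is drawn at its lower bound of 6.80, S100P is lowest among S100 genes at -1.21, and S100A6, at 0.30, turned to -0.21 after the correction for gene length.

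Promoter sequences are shown for the member with the largest rise and the member with the largest fall of each family, and for the partners ANXA2 and S100A10. Each is the 250 bases before the RefSeq start (GRCh38.p14), 5′ to 3′ on the strand of the gene. Capitals mark matches to any of 6 motifs on either strand. The motifs were TATAAA (the TATA box), GGGCGG (the GC box), TGANTCA (AP-1), ACGTG or GCGTG (the core of the hypoxia response element), TTCNNNGAA (STAT) and GGAATG (TEAD).
S100A9, chr1:153357604-153357853, plus strand: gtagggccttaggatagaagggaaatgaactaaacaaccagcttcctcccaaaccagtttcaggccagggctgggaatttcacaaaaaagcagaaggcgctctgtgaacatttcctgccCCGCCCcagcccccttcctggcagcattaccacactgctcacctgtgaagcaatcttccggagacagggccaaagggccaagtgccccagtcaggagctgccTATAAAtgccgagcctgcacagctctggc
ANXA10, chr4:168092287-168092536, plus strand: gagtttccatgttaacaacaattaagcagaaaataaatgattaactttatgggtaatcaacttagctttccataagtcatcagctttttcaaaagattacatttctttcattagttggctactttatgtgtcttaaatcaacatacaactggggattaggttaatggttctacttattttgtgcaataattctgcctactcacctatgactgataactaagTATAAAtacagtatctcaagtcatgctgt
S100A10, chr1:151993860-151994109, minus strand: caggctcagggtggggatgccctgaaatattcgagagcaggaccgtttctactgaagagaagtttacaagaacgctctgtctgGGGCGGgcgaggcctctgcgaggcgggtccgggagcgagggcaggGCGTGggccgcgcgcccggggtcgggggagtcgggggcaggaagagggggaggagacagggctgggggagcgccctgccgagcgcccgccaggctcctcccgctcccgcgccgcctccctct
ANXA2, chr15:60397987-60398236, minus strand: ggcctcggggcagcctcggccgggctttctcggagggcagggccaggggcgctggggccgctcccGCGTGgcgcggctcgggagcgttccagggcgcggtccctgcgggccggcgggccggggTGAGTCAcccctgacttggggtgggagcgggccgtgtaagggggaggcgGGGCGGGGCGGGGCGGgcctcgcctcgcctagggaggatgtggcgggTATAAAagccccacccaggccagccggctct
S100P, chr4:6693628-6693877, plus strand: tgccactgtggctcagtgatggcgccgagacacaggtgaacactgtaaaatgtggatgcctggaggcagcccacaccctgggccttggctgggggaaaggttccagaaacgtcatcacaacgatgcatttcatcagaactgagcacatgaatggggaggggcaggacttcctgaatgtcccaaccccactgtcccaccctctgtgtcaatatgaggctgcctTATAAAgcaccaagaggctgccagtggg
ANXA5, chr4:121696981-121697230, minus strand: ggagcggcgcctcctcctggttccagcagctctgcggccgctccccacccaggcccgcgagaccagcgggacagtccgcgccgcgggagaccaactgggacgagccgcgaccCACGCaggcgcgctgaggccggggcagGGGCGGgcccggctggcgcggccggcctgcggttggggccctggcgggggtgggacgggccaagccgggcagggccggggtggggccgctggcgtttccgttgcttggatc
The S100A9, ANXA10 and S100P windows had TATAAA with its last base 24, 24 and 23 bases before the start, and ANXA2 had it 26 bases before. S100A10 and ANXA5 had no TATAAA in this window, had 71.2% and 78.8% G and C and held 1 GC box each, and ANXA2 had 78.0%. ANXA2 alone among these 6 had an AP-1 match, TGAGTCA, and its 3 GC boxes overlap each other. The ANXA10 window was the poorest of the 6 in G and C at 31.2%.

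Promoter windows were found for 32 of the 35 members, 46 windows in all. TATAAA stood in 32.6% of these windows and in 10.7% of all 35116 promoter windows of the table, on either strand. The GC box stood in 34.8% against 42.6%, and the hypoxia core in 41.3% against 43.2%. The AP-1 motif stood in 13.0% against 6.57%, the STAT motif in 10.9% against 6.57% and the TEAD motif in 4.35% against 11.9%. TATAAA was found in windows of 7 of the 15 rising members with a window and of 1 of the 4 falling ones. The GC box was found for 12 and 2 of them, and the hypoxia core for 9 and 2. AP-1 was found for 2 and 1, STAT for 1 and 1, and TEAD for 1 and 0. These counts are per gene, whereas the shares above are per window. A match is a string of letters in a window, and binding was not measured.

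ANXA1 and ANXA2 were the most abundant annexin transcripts in both groups, and both rose. ANXA1, a mediator of the glucocorticoid response that limits inflammation, was at 1913, 1754 and 1778 CPM in the activated libraries and at 943, 1026 and 955 CPM in the dormant libraries. The groups stood clear of each other, and the fold was 1.86 (log2 fold change 0.90 ± 0.05 SE, adjusted p = 7.85e-10). ANXA2, which binds S100A10 and plasminogen, was at 5396, 5123 and 5227 CPM in the activated libraries, against 3012, 2709 and 2828 CPM in the dormant libraries (log2 fold change 0.88 ± 0.05 SE, adjusted p = 6.04e-10). ANXA2 shares up to 98.7% identity over 623 bases with its pseudogene ANXA2P2, so some of its reads may be lost or split.

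Levels of different genes can be compared only per length, as FPKM in the authors' table. On that scale ANXA1 reached 1040 ± 48.7 and ANXA2 956 ± 24.6 FPKM in activated cells, and their libraries did not overlap. In dormant cells ANXA1 was at 615 ± 34.1 and ANXA2 at 572 ± 25.3 FPKM (SD, n = 3), and dormant replicate 1 had ANXA2 above ANXA1, so their order is within the spread. ANXA5 came next at 108 ± 11.2 FPKM in activated and 190 ± 7.28 FPKM in dormant cells. ANXA8L1 stood at rank 4 in activated cells with 81.6 ± 4.94 FPKM and at rank 7 in dormant cells with 22.5 ± 2.66 FPKM. The lengths that the counts and FPKM imply are 5227 bases for ANXA2 and 8671 for ANXA11, and a level per length falls as the assigned length grows.

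ANXA10 rose most among annexins. It encodes a divergent annexin that is known from gastric epithelium, and it lies on chromosome 4 (168092537 to 168187736). Its level was 52.2, 43.5 and 45.2 CPM in the activated libraries, against 6.65, 8.08 and 5.56 CPM in the dormant libraries. Every activated library was far above every dormant one, a 6.92-fold difference (log2 fold change 2.79 ± 0.12 SE, adjusted p = 2.10e-11).

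ANXA6, ANXA8 and ANXA8L1 also rose at least 2-fold. ANXA6, the annexin with a doubled core, which links membranes to the cytoskeleton, was at 53.8, 61.6 and 54.6 CPM in the activated libraries and at 17.4, 18.4 and 20.1 CPM in the dormant libraries (log2 fold change 1.60 ± 0.08 SE, adjusted p = 9.26e-11). ANXA8L1 averaged 173 ± 10.4 CPM in activated and 43.3 ± 5.54 CPM in dormant cells (SD, n = 3 each; adjusted p = 1.33e-11). ANXA8 averaged 87.9 ± 3.78 CPM in activated and 28.4 ± 4.04 CPM in dormant cells, a 3.10-fold change. These are near-identical copies on chromosome 10, with 99.4% identity over 2174 bases, so their separate values are uncertain.

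ANXA11 and ANXA4 rose by less. ANXA11, which is known to tether RNA granules to lysosomes, averaged 210 ± 8.24 CPM in activated and 153 ± 1.44 CPM in dormant cells (log2 fold change 0.46 ± 0.05 SE, adjusted p = 6.05e-07). ANXA4, an annexin of epithelia, averaged 343 ± 29.1 CPM in activated and 259 ± 6.93 CPM in dormant cells (SD, n = 3 each; log2 fold change 0.41 ± 0.06 SE, adjusted p = 2.08e-05), and its log2 fold change was 0.27 with total counts.

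The 2 annexins that fell were ANXA5 and ANXA3. ANXA5, the annexin used as a probe for exposed phosphatidylserine, was at 331, 270 and 289 CPM in the activated libraries and at 490, 475 and 452 CPM in the dormant libraries. It was 1.59-fold lower in activated cells with no overlap between groups (log2 fold change -0.67 ± 0.07 SE, adjusted p = 2.89e-07). ANXA3, an inhibitor of phospholipase A2 in biochemical assays, was at 106, 79.8 and 96.5 CPM in the activated libraries, against 124, 108 and 112 CPM in the dormant libraries, and was 1.22-fold lower (log2 fold change -0.29, adjusted p = 0.00676). Without activated replicate 2 its log2 fold change was -0.18 (adjusted p = 0.0193). The highest activated ANXA3 library stood just under the lowest dormant one.

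ANXA7, ANXA13 and ANXA9 did not pass. ANXA7, an annexin of secretory vesicles, was at 123, 120 and 116 CPM in activated and at 133, 127 and 127 CPM in dormant libraries (log2 fold change -0.11, 95% interval -0.22 to -0.01, adjusted p = 0.0546). It did pass, as lower, with total counts in place of the trimmed mean scaling (log2 fold change -0.25, adjusted p = 0.000294), and without activated replicate 1 (log2 fold change -0.13, adjusted p = 0.0276). The interval for ANXA13, an intestinal annexin, was -0.27 to 0.49 on the log2 scale at about 4 CPM in both groups. ANXA9 had 30 activated and 37 dormant counts in all, and its interval of -1.44 to 1.11 leaves more than a 2-fold change in either direction possible.

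**Figure D2:**
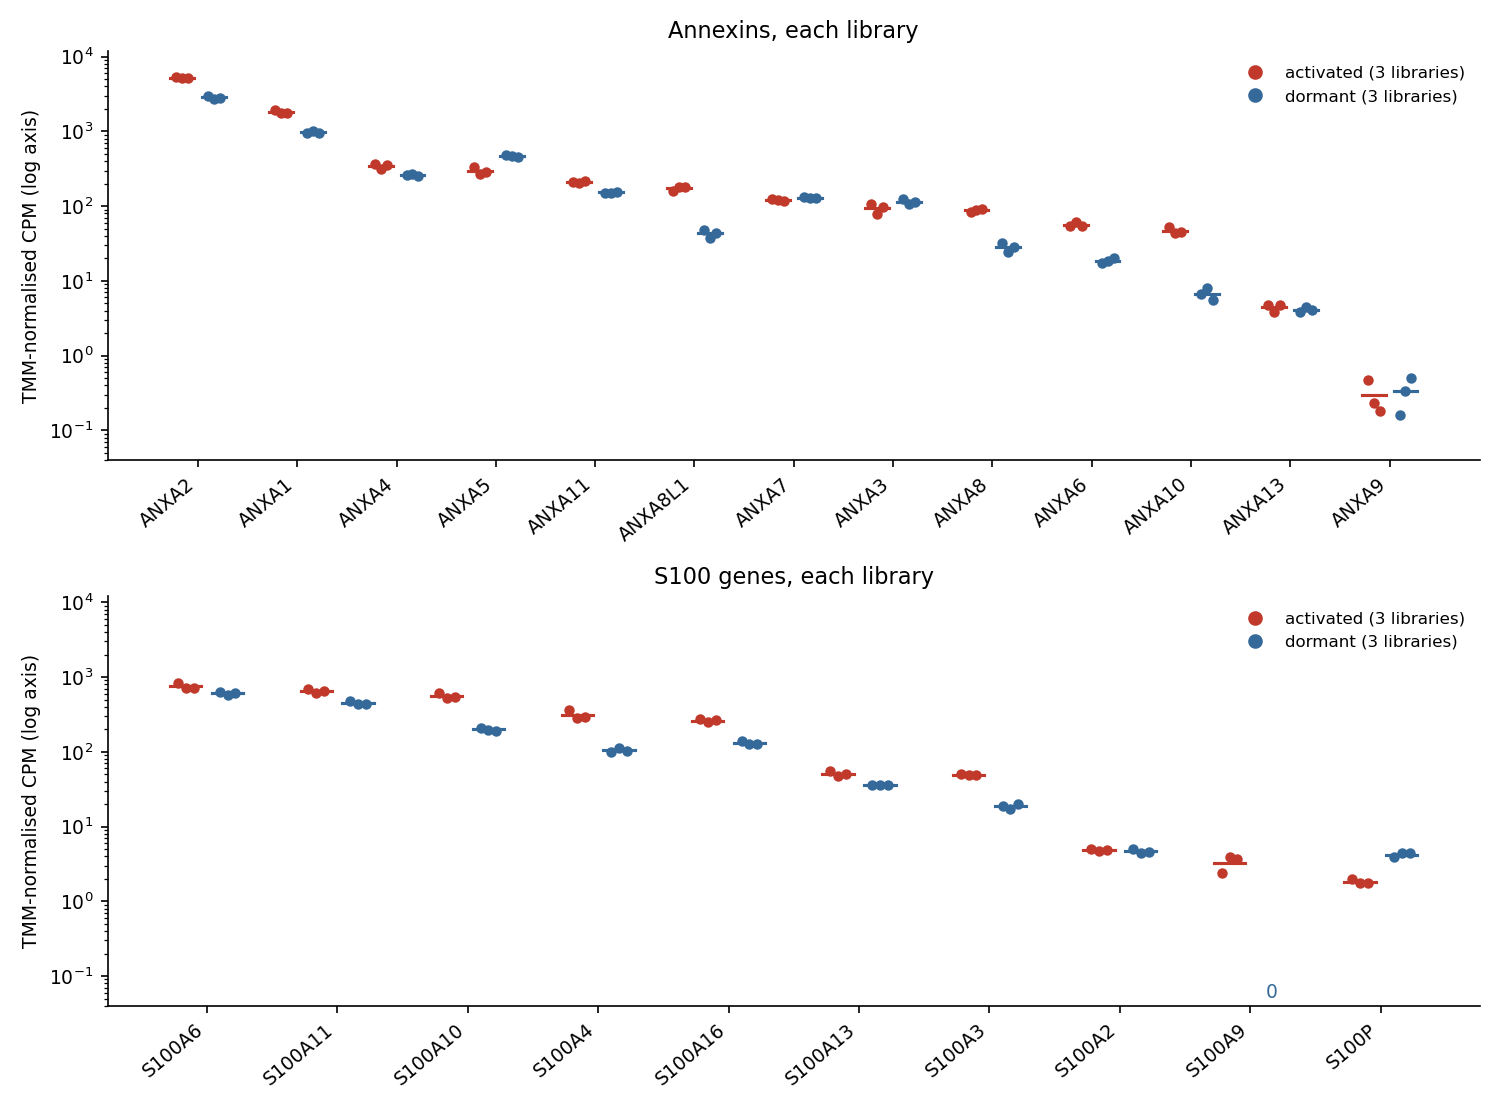
TMM-normalised CPM of each tested member in each library on a log axis, with a bar at the mean of 3 libraries. Activated and dormant points do not overlap for 11 of 13 annexins and 9 of 10 S100 genes, against 76.5% of all tested genes, and S100A9 is at 0 in the 3 dormant libraries.

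Among S100 genes, the steepest rise was that of S100A9. Its product pairs with S100A8 to form calprotectin, an inflammatory protein that is abundant in neutrophils and monocytes. S100A9 (chromosome 1, 153357854 to 153361023) had 81, 134 and 120 counts in the activated libraries and 0 counts in each dormant library. Against the 3 counts that a total of 0 allows over the dormant group, activated cells were at least 112-fold higher, at 3.14 against at most 0.0281 CPM of the plain total (adjusted p = 7.77e-08). Only its activated libraries took the gene past the filter, so no result but a rise was possible. The level was low, at 5.48 ± 1.35 FPKM (SD, n = 3).

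Its partner S100A8 had 1, 1 and 2 counts in the activated libraries and 0 in the dormant libraries, too few to test. S100A12, the third S100 protein typical of myeloid cells, had 0 counts in all libraries. Of 14 myeloid markers, 5 could be tested and rose (4 with total counts), of which LAPTM5 and CSF1R passed the filter through activated libraries alone, with CD14, a lipopolysaccharide co-receptor of monocytes, at 9.25 ± 0.478 CPM in activated and 1.10 ± 0.396 CPM in dormant cells. The markers summed to 166 to 174 CPM in activated and 136 to 148 CPM in dormant libraries, most of it CD68. TYROBP, AIF1, C1QA, C1QB and C1QC were at 0 in all libraries. LYZ had too few counts to test (4, 3 and 4 in activated, 3, 11 and 6 in dormant libraries). So did SPI1 (1, 5 and 1 against 11, 0 and 0). The same held for FCER1G (5, 5 and 1 against 5, 5 and 1) and PTPRC (0, 0 and 5 against 0, 0 and 1). Of 11 osteoclast markers, 2 rose (ITGB3 and MMP9) and 4 fell (ATP6V0D2, ACP5, NFATC1 and CTSK), while CALCR, DCSTAMP and OCSTAMP were at 0 throughout. MMP9 passed the filter through activated libraries alone, and ATP6V0D2 and ACP5 through dormant libraries alone, so those 3 could go only one way. The integrin ITGB3 was at 265 ± 41.4 CPM in activated and 5.88 ± 0.609 CPM in dormant cells, and the proton pump subunit ATP6V0D2 at 0.0707 ± 0.0982 CPM in activated and 19.3 ± 1.72 CPM in dormant cells. The list summed to 252 to 335 CPM in activated and 57.6 to 61.0 CPM in dormant libraries. ITGB3 alone made up 230 to 310 CPM of the activated sums and 5.27 to 6.49 CPM of the dormant sums. For scale, 36.5% of all tested genes rose and 37.2% fell. The part of RNA from other cells in the S100A9 counts was not tested.

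S100A4, S100A10 and S100A3 rose between 2.65-fold and 2.95-fold. S100A4, known for its role in cell motility and metastasis, was at 357, 282 and 288 CPM in the activated libraries and at 99.1, 111 and 104 CPM in the dormant libraries. All activated libraries were above 2 times any dormant library, and the fold was 2.95 (log2 fold change 1.56 ± 0.08 SE, adjusted p = 1.83e-10). S100A10, the S100 protein that does not bind calcium and is held by ANXA2, was at 611, 518 and 533 CPM in the activated libraries, against 208, 197 and 192 CPM in the dormant libraries (log2 fold change 1.48 ± 0.06 SE, adjusted p = 2.51e-11). S100A3, a cysteine-rich protein known from hair, averaged 49.2 ± 1.35 CPM in activated and 18.6 ± 1.32 CPM in dormant cells (log2 fold change 1.40 ± 0.07 SE, adjusted p = 1.85e-10). S100A3 and S100A4 overlap on the same strand in GENCODE 29, so reads in shared exons may be lost or given to either gene.

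S100A16, S100A11 and S100A13 followed. S100A16, a widely expressed member, averaged 260 ± 12.3 CPM in activated and 132 ± 7.45 CPM in dormant cells, a 1.97-fold change (log2 fold change 0.98 ± 0.06 SE, adjusted p = 6.37e-10). S100A11, a partner of annexin A1, averaged 654 ± 36.9 CPM in activated and 445 ± 23.4 CPM in dormant cells (log2 fold change 0.56 ± 0.06 SE, adjusted p = 3.38e-07), and its log2 fold change was 0.16 after the correction for gene length. S100A13, which takes part in the export of proteins that lack a signal peptide, averaged 50.7 ± 4.32 CPM in activated and 35.9 ± 0.177 CPM in dormant cells (log2 fold change 0.50 ± 0.07 SE, adjusted p = 1.04e-05). S100A13 overlaps S100A1 on the other strand, and S100A1 had 8 counts in activated and 0 in dormant cells.

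S100A6, the S100 protein with the highest level per length in both groups, had the smallest called change among S100 genes. It was at 821, 704 and 721 CPM in the activated libraries and at 627, 583 and 619 CPM in the dormant libraries, a 1.23-fold difference (log2 fold change 0.30 ± 0.06 SE, adjusted p = 0.000401). This direction depended on the correction for gene length, with S100A6 at 434 bases. After the correction for gene length its log2 fold change was -0.21 (adjusted p = 0.00106), and in limma on log2(FPKM + 1) it was 0.15 (adjusted p = 0.0506).

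S100P was the only tested S100 gene that was called lower without that correction. S100P, a placental S100 protein that is often raised in adenocarcinomas, lies on chromosome 4 (6693878 to 6697170), outside the cluster. It was at 1.96, 1.76 and 1.74 CPM in the activated libraries and at 3.90, 4.37 and 4.36 CPM in the dormant libraries, 2.31-fold lower (log2 fold change -1.21 ± 0.21 SE, adjusted p = 9.99e-05). S100A2, a member lost in several carcinomas, did not pass, at 4.83 ± 0.165 CPM in activated and 4.68 ± 0.284 CPM in dormant cells (SD, n = 3 each; 95% interval of the log2 fold change -0.30 to 0.39).

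The 10 S100 genes below the filter comprised 5 with counts and 5 with none. S100A12, S100A7A, S100B, S100G and S100Z had 0 counts in all libraries. S100A5 had 15 activated and 31 dormant counts, a ratio of 0.484 (exact binomial 95% interval 0.243 to 0.923, counting error only), and its dormant counts were 19, 12 and 0. S100A14 had 14 activated and 10 dormant counts, a ratio of 1.40 (interval 0.578 to 3.52). S100A7, known from psoriatic skin, had 5 activated and 1 dormant counts, and the 5 were all in activated replicate 2.

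In the order of levels per length, the first 7 S100 genes kept their places in both groups. They were S100A6, S100A11, S100A10, S100A4, S100A16, S100A3 and S100A13. Summed over the family, S100 transcripts reached 4051 to 4704 FPKM in activated and 2898 to 3031 FPKM in dormant libraries. S100A6 made up 37.8% to 38.3% of that sum in activated and 49.2% to 50.9% in dormant libraries, while S100A10 made up 18.1% to 18.4% in activated and 10.2% to 10.8% in dormant libraries. Annexin transcripts summed to 2357 to 2537 FPKM in activated and 1584 to 1632 FPKM in dormant libraries. ANXA5 made up 4.18% to 4.75% of the annexin sum in activated and 11.4% to 11.9% in dormant libraries.

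**Figure D3:**
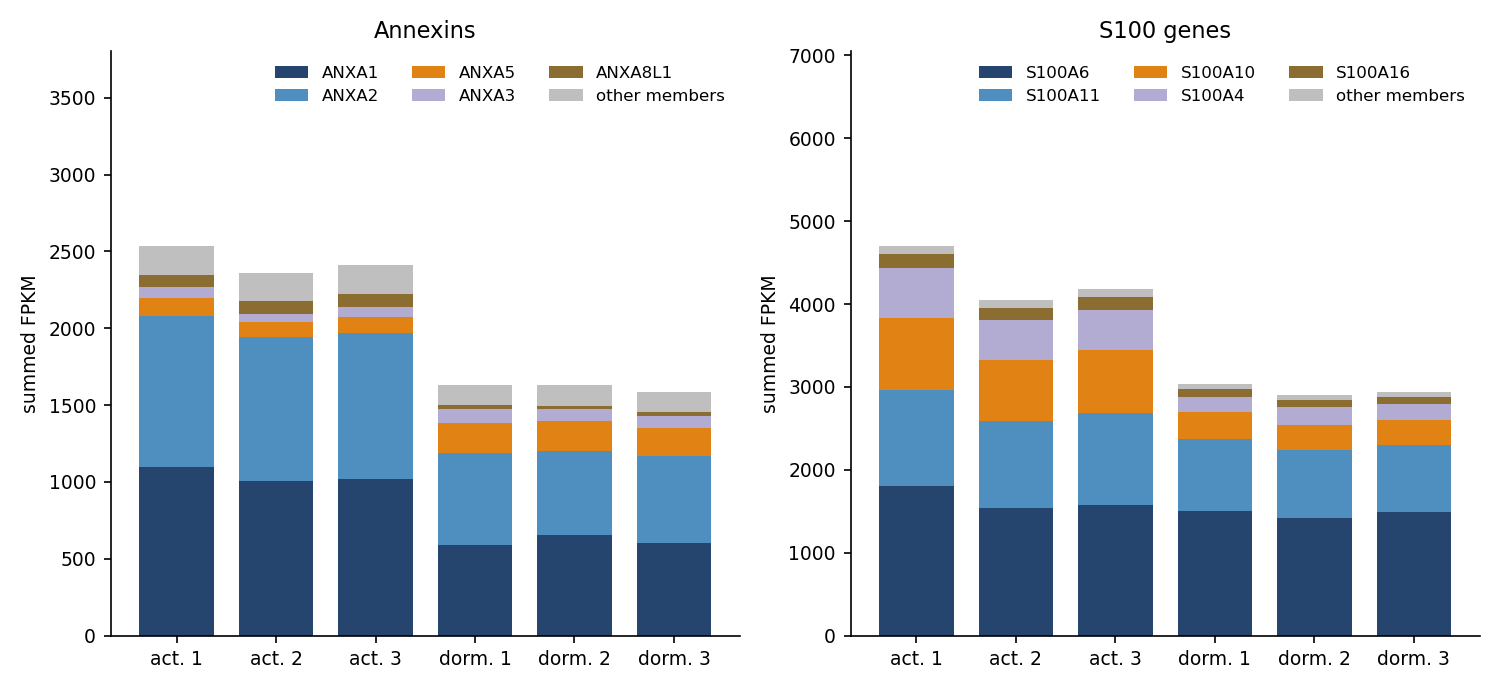
Summed FPKM of the annexins and of the S100 genes in each library, stacked by member, with the 5 leading members named. The activated bars are taller in both families, and in activated libraries the S100A10 and S100A4 segments are taller and the ANXA5 segment is shorter.

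Of the 16 S100 genes on chromosome 1, 9 were tested and 8 of these rose, while the 4 S100 genes elsewhere had 1 tested member, S100P. S100A10 and S100A11 lie apart from the rest, between 151982915 and 152037004. The other 14 run from S100A9 to S100A1, between 153357854 and 153634361, and 6 of the 7 tested there rose. S100A9, which could only be seen to rise, is in both counts of rising genes. Of all tested genes, 36.5% rose and 37.2% fell. Values varied between neighbours: S100A2 (log2 fold change 0.05) lies between S100A3 (1.40) and S100A16 (0.98), and S100A6 (0.30, or -0.21 after the correction for gene length) lies close to S100A4 (1.56). Of 7 genes that flank the cluster, 3 rose and 3 fell (1 and 3 with total counts), with INTS3, a subunit of the Integrator complex, 1.30-fold higher and SLC27A3, an acyl-CoA synthetase, 2.14-fold lower (log2 fold change -1.10, or -0.71 without activated replicate 2). Of 18 genes of the epidermal differentiation complex, 12 had 0 counts in all libraries and 1 was tested. That gene, TCHH, a structural protein of hair follicles, was 2.12-fold lower at 1.20 ± 0.389 CPM in activated and 2.55 ± 0.109 CPM in dormant cells.

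**Figure D4:**
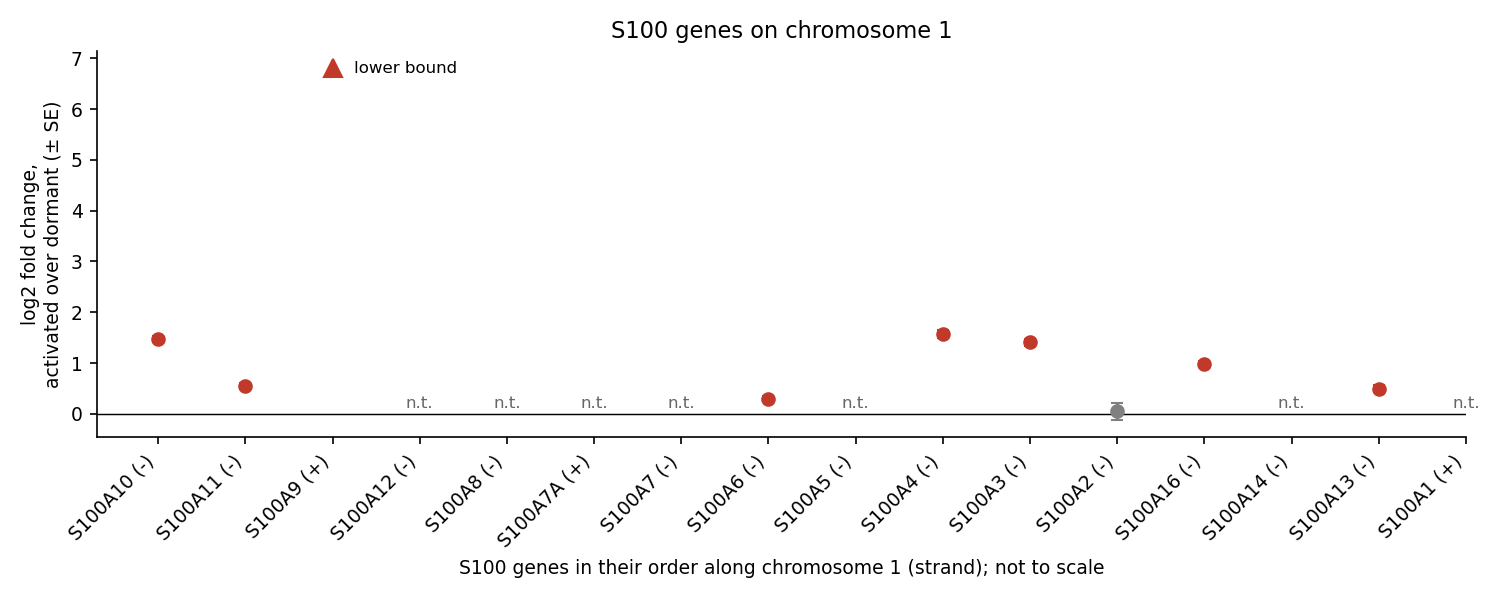
Log2 fold change (± SE) of the 16 S100 genes on chromosome 1 in chromosomal order, with the strand in brackets. Points in colour were called higher, S100A2 in grey was not called, S100A9 is at its lower bound of 6.80, genes marked n.t. were not tested, and S100A6, here at 0.30, was at -0.21 after the correction for gene length.

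Partner transcripts were also compared as ratios. Ratios within a library do not depend on how libraries are scaled, but they do depend on the correction for gene length, since the partners differ in length. The ratio of ANXA2 to S100A10 in FPKM was 1.13, 1.27 and 1.26 in the activated libraries and 1.86, 1.76 and 1.89 in the dormant libraries. All activated ratios were below all dormant ones, with a difference in the log2 ratio of -0.59 between activated (0.29 ± 0.09) and dormant (0.88 ± 0.05) cells (SD, n = 3 each; exact permutation p = 0.10, two-sided, adjusted over the 3 pairs p = 0.15). With 3 libraries against 3, 0.10 is the smallest p this test allows. After the correction for gene length the difference shrank to -0.19 (0.49 ± 0.03 in activated and 0.67 ± 0.06 in dormant cells), still without overlap. The ratio of ANXA1 to S100A11 was 0.937, 0.962 and 0.921 in the activated libraries and 0.677, 0.807 and 0.747 in the dormant libraries, with no overlap and a log2 difference of 0.34 (exact permutation p = 0.10, adjusted p = 0.15), or 0.62 after the correction. ANXA11 over S100A6 overlapped between groups, with a log2 difference of 0.17 (exact permutation p = 0.20, adjusted p = 0.20). After the correction that difference was 0.81, and the groups no longer overlapped (exact permutation p = 0.10, unadjusted). S100A8 over S100A9 could not be computed, since both were at 0 in dormant cells.

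**Figure D5:**
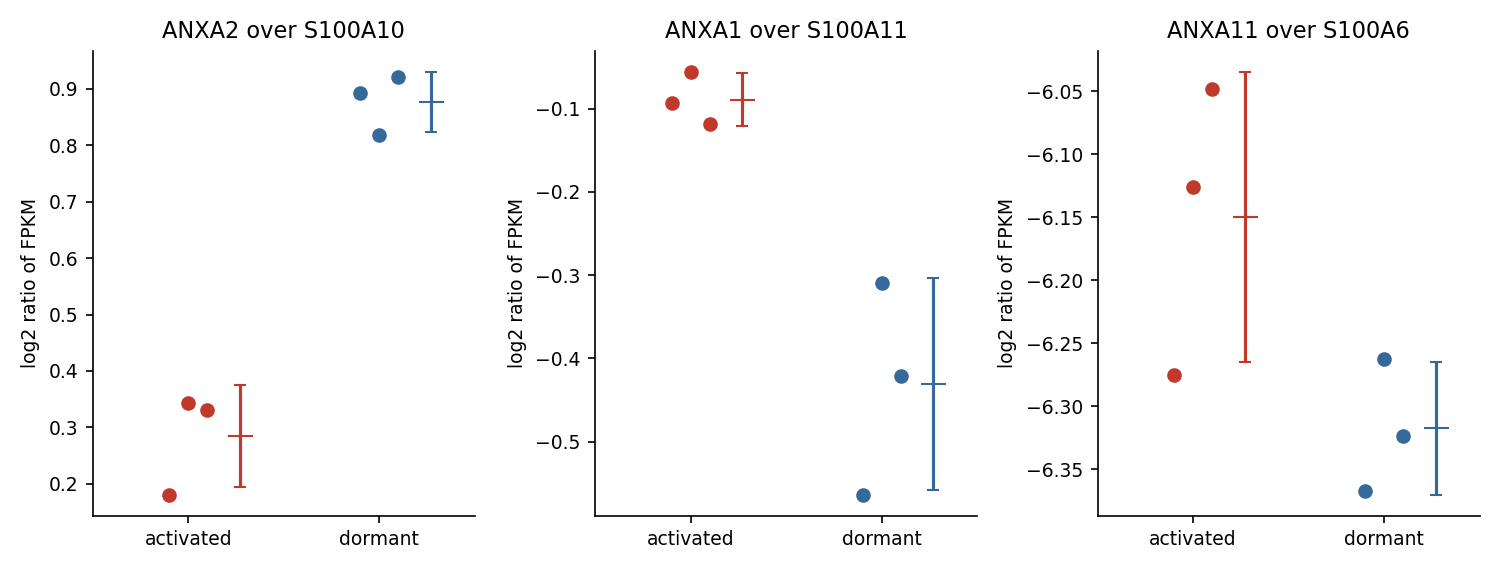
Log2 ratio of FPKM for 3 annexin and S100 pairs in each library, with the mean ± SD of 3 libraries beside the points. The axes differ in range. ANXA2 over S100A10 is lower and ANXA1 over S100A11 higher in the activated libraries, without overlap, while ANXA11 over S100A6 overlaps. After the correction for gene length, which is not drawn, the differences were -0.19, 0.62 and 0.81.

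Most genes of plasminogen activation, the process that the annexin A2 complex aids at the cell surface, were higher in activated cells. Of 10 genes of plasminogen activation, 8 were tested and 7 rose, and the median over the 8 was 1.08 on the log2 scale. A rise was called for 36.5% of all tested genes. PLAU, the urokinase protease, was at 593, 783 and 711 CPM in the activated libraries and at 141, 133 and 138 CPM in the dormant libraries, a 5.06-fold change (log2 fold change 2.34 ± 0.08 SE, adjusted p = 2.70e-12). PLAT, the tissue plasminogen activator, was 4.62-fold higher at 10.9 ± 1.33 CPM in activated and 2.36 ± 0.666 CPM in dormant cells. PLG, plasminogen itself, had 0 counts in all libraries, and PLGRKT, a plasminogen receptor, did not pass (adjusted p = 0.913).

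Genes of membrane repair and other annexin partners were divided. Of 23 listed, 22 were tested, of which 7 rose and 11 fell (5 and 14 with total counts), with a median of -0.12. The shares over all tested genes were 36.5% higher and 37.2% lower. DYSF, the repair protein dysferlin, was at 2.02, 1.27 and 1.98 CPM in the activated libraries and at 26.9, 23.0 and 28.8 CPM in the dormant libraries, 15.0-fold lower (log2 fold change -3.90 ± 0.16 SE, adjusted p = 1.40e-11). SYT7, a calcium sensor of lysosome exocytosis, was 3.98-fold lower. CAV1, the coat protein of caveolae, averaged 653 ± 34.4 CPM in activated and 267 ± 15.9 CPM in dormant cells, a 2.44-fold rise. AHNAK, a large scaffold that binds the annexin A2 and S100A10 complex, was 2.13-fold lower at 731 ± 92.3 CPM in activated and 1561 ± 82.9 CPM in dormant cells (adjusted p = 5.46e-09).

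Of 10 receptors for S100 proteins or annexins, 7 were tested, 3 rose and 1 fell (2 and 2 with total counts). Among all tested genes, 36.5% rose and 37.2% fell. TLR4, a receptor for calprotectin, was 1.54-fold higher at 9.30 ± 1.52 CPM in activated and 6.03 ± 0.968 CPM in dormant cells, and its call ended in limma on log2(FPKM + 1) (adjusted p = 0.0659). BSG, an immunoglobulin-type receptor that binds S100A9, was 1.33-fold higher, and NPTN, its relative, which binds S100A8, was 1.46-fold lower. AGER, the receptor for advanced glycation end products, did not pass at 1.23 ± 0.346 CPM in activated and 1.08 ± 0.114 CPM in dormant cells (adjusted p = 0.624). The formyl peptide receptors FPR2 and FPR3, the first of them a receptor for annexin A1, had 0 counts in all libraries. The related FPR1 is in the same list of S100 and annexin receptors. It had 9, 1 and 2 counts in the activated libraries and 0 in each dormant library, too few to test.

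Other EF-hand calcium sensors outside the S100 family also rose in the main. Of 32 listed, 21 were tested, of which 16 rose and 1 fell (14 and 3 with total counts), with a median of 0.42. Over all tested genes, 36.5% rose and 37.2% fell. EFHD2, a cytoskeletal calcium sensor, averaged 253 ± 16.1 CPM in activated and 75.1 ± 1.41 CPM in dormant cells, a 3.38-fold change (log2 fold change 1.76 ± 0.06 SE, adjusted p = 1.10e-12). CALM3, one of the calmodulin genes, was 2.25-fold higher. CALML4, a calmodulin-like gene, was 1.34-fold lower with overlapping groups (adjusted p = 0.0371). The CALML4 call ended without activated replicate 1 (adjusted p = 0.0947), activated replicate 2 (0.0587), dormant replicate 2 (0.172) or dormant replicate 3 (0.151).

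Of the pair of symbols that the naming rule also caught, S100PBP fell and ANXA2R did not pass. S100PBP was at 30.8, 28.0 and 28.3 CPM in the activated libraries and at 40.2, 43.9 and 44.2 CPM in the dormant libraries, 1.47-fold lower (log2 fold change -0.56 ± 0.07 SE, adjusted p = 3.65e-06). It overlaps YARS on the other strand. ANXA2R was at 1.73 ± 0.244 CPM in activated and 1.64 ± 0.587 CPM in dormant cells with a 95% interval of the log2 fold change of -0.60 to 0.76.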

How the data were processed

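RNA-seq libraries of A549 cells were analysed, 3 activated and 3 dormant, grouped by the sample titles. Both tables were deposited by the authors. The deposited counts are whole reads for each symbol, and the deposited FPKM values are those reads scaled to library total and gene length, which was tested on the tables. The tools and build listed, with no roles, are HTSeq, HISAT2, fastp and GRCh38, per the submitters' processing notes. Versions, annotation and the strand setting of counting are not given in these sources. If strand was not used, reads of genes that overlap on opposite strands cannot be told apart.

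The counts went into edgeR 4.0.16 under R 4.3.3 (quasi-likelihood F test). Scaling was by trimmed mean of M values (TMM), genes were kept by filterByExpr with the groups given, and Benjamini-Hochberg adjustment ran over the 13336 genes kept. CPM values are TMM-normalised, except those beside a count of 0, which use plain totals and a limit of 3 counts over the group. Standard errors were derived from the fold change and F. On simulated counts for these 13336 genes, 58% of genes with a simulated 1.25-fold change and 96% with a 2-fold one were found, and 16 of 185 calls were false. Only 50 genes, all above 1 CPM, were changed at each fold of 1.25, 1.5, 2 and 4. In the data 73.7% of genes passed, so these rates may not hold for them or for genes with fewer counts. Transcript similarity came from blastn 2.17.0 (at least 95% identity over 75 bases) on GENCODE 29. Promoters and coordinates are RefSeq's, GRCh38.p14.

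All tested members are named. Of each companion list, the rule named the 2 largest called changes in the majority direction and the largest in the other, or 1 each where the directions tied. It was not applied to the lists of cell type markers, whose named genes, like AHNAK, PLGRKT, AGER, FPR1 and the genes at 0, were picked once values were known. The members and lists were chosen with earlier results of these data known. Alternatives were other scalings (DESeq2 1.42.0 size factors, total counts, upper quartile), DESeq2, limma voom (limma 3.58.1), other filters, a replicate block, leaving out each library, limma on log2(FPKM + 1) or log2(FPKM + 0.1), a fold minimum of 2 and, added later, a loess correction for gene length (span 0.3).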

Additional observations from a re-analysis of the deposited data

How the results depend on the processing

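The fold minimum of 2 is left out of this count of member values and is given below. Of 447 values of the 25 tested members under the other alternatives, 434 kept the call. For members called in the main fit, keeping the call meant keeping its direction too. The exceptions were 9 values of ANXA7, which passed as lower under those settings, and 4 of S100A6. Direction was not counted for members not called. Of these, ANXA9 (log2 fold change -0.67 to 0.25), ANXA2R (-0.10 to 0.41), ANXA13 (-0.03 to 0.21) and S100A2 (-0.11 to 0.10) changed sign between settings. S100A6 missed the threshold in the 3 limma fits on FPKM (log2 fold changes 0.15) and reversed after the gene length correction (-0.21), the cause of which was not tested. With 1 library left out, the S100 median log2 fold change was 0.74 and 0.82 in the fits that tested 10 S100 genes. It was 0.52 to 0.60 in the fits that tested 11. The S100 median was 0.98 with no filter and 0.17 in limma on log2(FPKM + 1) with no filter (15 genes each), against 0.77 in the main fit (10 genes). Relative to TMM, total counts shifted the median of all genes by -0.14 and log2(FPKM + 0.1) by -0.12 (log2). With a fold minimum of 2, by construction, 2959 genes passed (1493 higher, 1466 lower), 4 annexins (4 higher, 0 lower), 5 S100 genes (4 higher) and 16 genes of the companion lists (11 higher, 5 lower). The gene length correction called 2 S100 genes lower. Under the other scalings, tools and filters, between 9109 and 10009 genes passed, 8 annexins were higher in every setting and 7 or 8 S100 genes were higher. The higher calls were 4868 of 9830 in all, and 3941 of 9939 with total counts.

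Leaving out 1 library gave 9298 to 9756 changed genes, 10 to 11 called annexins and 9 called S100 genes, and the log2 ratio of ANXA2 to S100A10 differed by -0.62 to -0.54. The gene length correction moved the 3 ratio differences to -0.19 (ANXA2 over S100A10), 0.62 (ANXA1 over S100A11) and 0.81 (ANXA11 over S100A6). A replicate block on the library numbers called 9789 genes, 10 annexins and 9 S100 genes and changed the call of no member. Same-numbered libraries hardly deviated together (r of -0.0152, 0.0190 and -0.00572), and the numbers were not used to pair them. Paired by number, the 3 ratio tests gave p = 0.25 by exact sign permutation, the smallest 3 pairs allow. At these depths ANXA9 had 30 activated and 37 dormant counts, and 5 S100 genes had counts too low to test.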
